A study of Bos taurus with 16 samples.

Results

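The 100 most abundant transcripts of cattle whole blood were chosen by their level. They are the 100 Ensembl gene identifiers with the highest mean CPM, the count of a gene per 1000000 counts in genes of its library, over 15 of 16 animals. The files held 24616 identifiers, of which 18880 had a count in these 15 libraries. The rule also set aside 3 identifiers, ENSBTAG00000012640, ENSBTAG00000006505 and ENSBTAG00000012638, but these ranked 1089, 170 and 147, so all 100 identifiers are members. Because the mean level chose the members, their high level is a description and not a finding. The yield labels and the library that was not used for the choice did not enter the rule. The mean was taken over the same 15 animals that are compared below. A member near the limit can therefore owe its place to a single group or to a few animals with high values. For such members the group difference and the spread are not independent of the choice.

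Whole blood RNA was sequenced from dairy cattle of the labelled phenotype high or low milk protein yield, with 8 animals in each group and 1 library per animal. Sample labels give no breed, age, diet, treatment or lactation stage. The design text groups the animals by RFI, an abbreviation it does not expand, while title and sample labels give milk protein yield, which is followed here. High-yield animal 4 was left out of the choice of members and of the main comparisons, which leaves 7 high-yield and 8 low-yield animals. Totals were 23727368 to 39793845 counts in genes per library, and a member had at least 10611 counts in each of the 15 libraries, so that counting error was at most 0.971% of a member's level. In high-yield animal 4 only 12197 genes were counted at least once, and in the other animals 15494 to 16217.

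Blood RNA is a mixture. Red cells and their precursors, platelets, neutrophils, monocytes and lymphocytes each contribute transcripts, and in bulk blood a fall in the number of cells of a type and a fall in RNA per cell cannot be told apart. The most abundant transcripts of blood are usually those of the protein synthesis machinery, the mitochondrial genome, the actin cytoskeleton, antigen presentation and the main products of the commonest cells. Which member belongs to which of these groups is not stated here, because identifiers come without gene names. Of the identifiers, 0 matched the name table used, which carries no Ensembl identifiers. Markers of blood cell types could for the same reason not be scored, and gene lengths were not used. The order of the members is thus an order of read counts and not of transcript numbers.

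The members held 22.1% ± 1.25 of all counts in genes (SD, n = 15 animals), although they are 100 of 24616 identifiers. The share was lowest in high-yield animal 7, at 18.9%, and highest in high-yield animal 3, at 24.1%, with a median of 22.2%. The single most abundant member, ENSBTAG00000015228, took 1.46% ± 0.175 of the counts, the 10 most abundant took 6.67% ± 0.710 and the 50 most abundant 15.4% ± 0.993 (SD, n = 15). The distribution was therefore flat beyond the first few members: 6 members exceeded 5000 CPM on average, 28 lay between 2000 and 5000 CPM, and 66 lay below 2000 CPM.

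ENSBTAG00000015228 averaged 14590.5 ± 1752 CPM (SD, n = 15), with 10999 CPM in low-yield animal 3 and 18099.8 CPM in high-yield animal 3 as its extremes. It was the most abundant transcript in 13 of the 15 animals. In low-yield animals 7 and 8 that place was taken by ENSBTAG00000043561, at 14864 and 15519 CPM, which averaged 9193 ± 3332 CPM. ENSBTAG00000031814 followed with 9046 ± 3014 CPM and ENSBTAG00000014534 with 7605 ± 1830 CPM (SD, n = 15). The members ranked 2 and 3 thus had nearly equal means, which lay closer together than the spread of either between animals. ENSBTAG00000026199, at 5635 ± 967 CPM, and ENSBTAG00000047418, at 5080 ± 664 CPM, were the other members above 5000 CPM. The ranks 7 to 10 were held by ENSBTAG00000009535, ENSBTAG00000012330, ENSBTAG00000016315 and ENSBTAG00000043560, with means of 4588, 4147, 3580 and 3236 CPM.

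**Figure D1:**
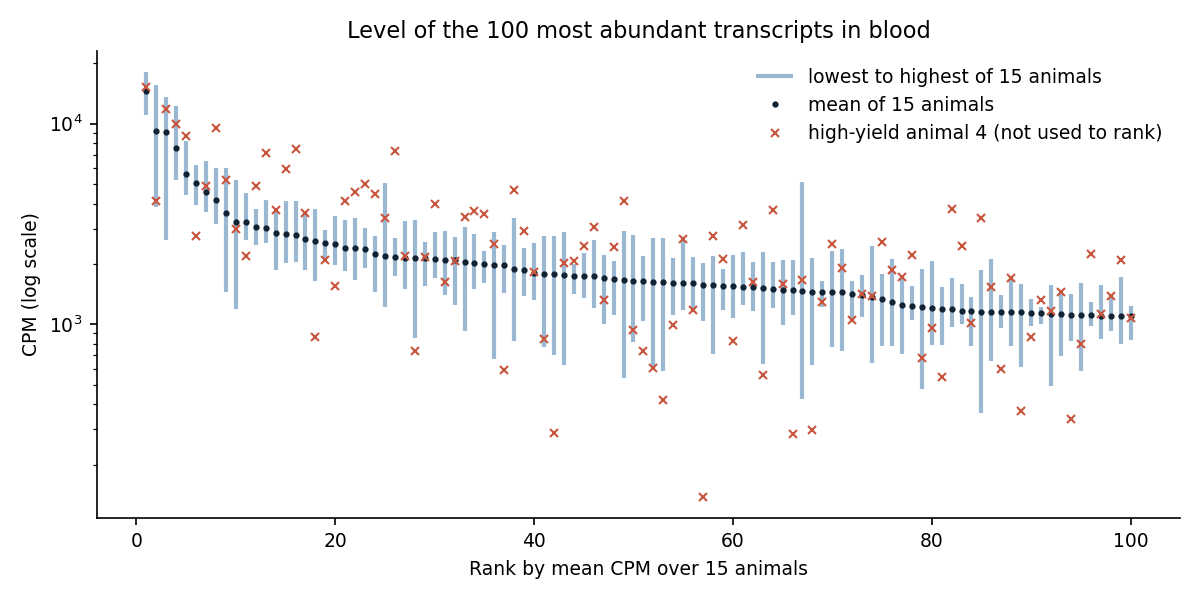
CPM (log scale) of the 100 members in order of their mean over 15 animals. Points are means, lines run from the lowest to the highest of the 15 animals, and crosses give high-yield animal 4, which was not used for the ranking and lies above the line for 38 members and below it for 21.

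Membership was shared widely but not by every animal. Of the 100 members, 46 were among the 100 most abundant transcripts in all 15 animals, and 24 were so in at most 10 animals. An animal's own 100 most abundant transcripts included 84.8 ± 5.67 members (SD, n = 15), from 76 in high-yield animals 3 and 7 to 93 in low-yield animal 5. The limit at rank 100 did not separate distinct levels. Just inside it lay ENSBTAG00000013411, ENSBTAG00000003205 and ENSBTAG00000030209, at 1098, 1096 and 1094 CPM, and just outside it ENSBTAG00000007079, ENSBTAG00000010416 and ENSBTAG00000015598, at 1087, 1083 and 1083 CPM, while the SD of these 6 between animals was 121 to 246 CPM.

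The rule had not used high-yield animal 4, which was left out because far fewer genes had a count in its library. Its values are thus a description and no ordinary check of membership. The 100 most abundant transcripts of this animal included 64 members, fewer than in any of the 15 other animals. The members nevertheless took a larger share of its counts, 27.3%, than in any other animal. Of the members, 41 lay within the range of the other 15 animals, 38 above it and 21 below it. Among all 13264 genes tested, 34.8% lay within that range, 17.0% above it and 48.2% below it. The members furthest outside, chosen after their values were seen, were ENSBTAG00000038488, at 7284 CPM against a highest value of 2686 CPM elsewhere, and ENSBTAG00000010402, at 138 CPM against a lowest value of 1038 CPM elsewhere.

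The spread between animals was far larger than counting error. The coefficient of variation (SD over mean of CPM over the 15 animals) had a median of 19.6% over the members, with its quartiles at 15.6% and 30.3%. The median was 19.8% over the 100 transcripts next in rank, 19.6% over the 800 after those and 27.6% over all genes tested. The members' median spread was thus close to that of other abundant transcripts. A coefficient above 30% was found in 26% of the members, 19% of the 100 next in rank and 22.5% of the 800 after those. With TMM-adjusted library totals the median was 21.1% over the members and 25.5% over all genes tested.

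Some members were steady over all animals. ENSBTAG00000003895 had the lowest coefficient of variation, 5.45%, with 1003 CPM in low-yield animal 7, a median of 1131 CPM and 1217 CPM in high-yield animal 6. ENSBTAG00000006039, ENSBTAG00000003039, ENSBTAG00000020294 and ENSBTAG00000017246 followed, at 8.07%, 8.38%, 9.70% and 9.91%. In 10 members the highest animal had less than 1.5 times the level of the lowest, and in 51 less than 2 times.

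Other members differed several-fold between animals. ENSBTAG00000002069 had the highest coefficient of variation, 77.9%, from 424 CPM in low-yield animal 8 over a median of 1278 CPM to 5144 CPM in high-yield animal 8, a 12.1-fold range. ENSBTAG00000031160 followed with 45.4%, a median of 1911 CPM and 5049 CPM in low-yield animal 2. ENSBTAG00000026779, ENSBTAG00000048122 and ENSBTAG00000048155 had 40.3%, 39.8% and 39.6%, and all 3 had their lowest level in high-yield animal 7. In 27 members the highest animal had at least 3 times the level of the lowest.

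**Figure D2:**
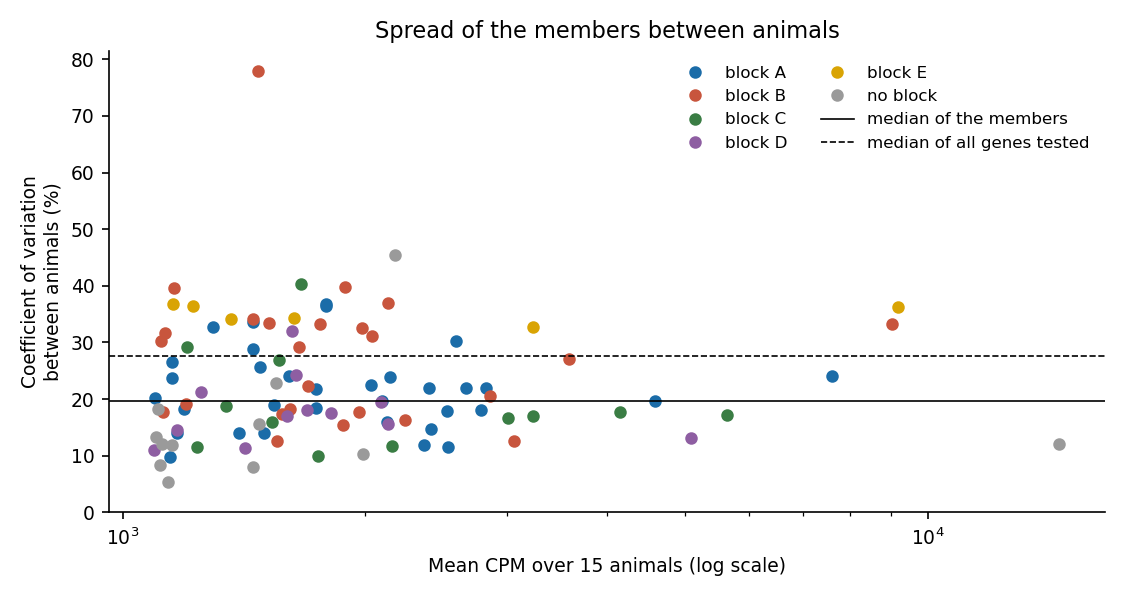
Coefficient of variation between 15 animals (in percent) against mean CPM (log scale) for the 100 members, coloured by the correlation block described in the text. The solid line is the median of the members, 19.6%, and the dashed line that of all genes tested, 27.6%; the highest point is ENSBTAG00000002069 at 77.9%.

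The extremes were not spread evenly over the animals. For 28 members the top level lay in high-yield animal 3, and for 26 the bottom level in high-yield animal 7. Low-yield animals 7 and 8 were highest in 13 and 15 members and lowest in 13 and 10. High-yield animal 5, with 10 highest and 19 lowest members, had more extremes than either of these low-yield animals, at a share of alignments in no gene of 18.7%. High-yield animals 3 and 7 and low-yield animals 7 and 8 were those with the largest share of alignments in no gene, 22.1% to 23.6%, against 18.3% to 21.1% in the other 11. Together these 4 held the highest level of 61 members and the lowest level of 53. Without them the median coefficient of variation was 14.9% over the members and 20.3% over all genes tested. Whether the share of alignments in no gene plays a part in the members' levels was not tested.

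The members rose and fell together in a few large sets. Pearson correlations of log2(CPM + 1) over the 15 animals were computed for all 4950 pairs of members. Their median was 0.05, with 360 pairs at 0.8 or above and 135 at -0.8 or below. Average-linkage clustering of these correlations, divided at a distance of 0.5, gave 5 blocks of at least 4 members, called A to E here by size, which held 88 of the 100 members. The blocks are defined by the same values that describe them, so no test is attached to them, and correlations over 15 animals share the library totals that scale each animal. The level of a block in an animal is given below as the mean difference of its members' log2(CPM + 1) from their own means.

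**Figure D3:**
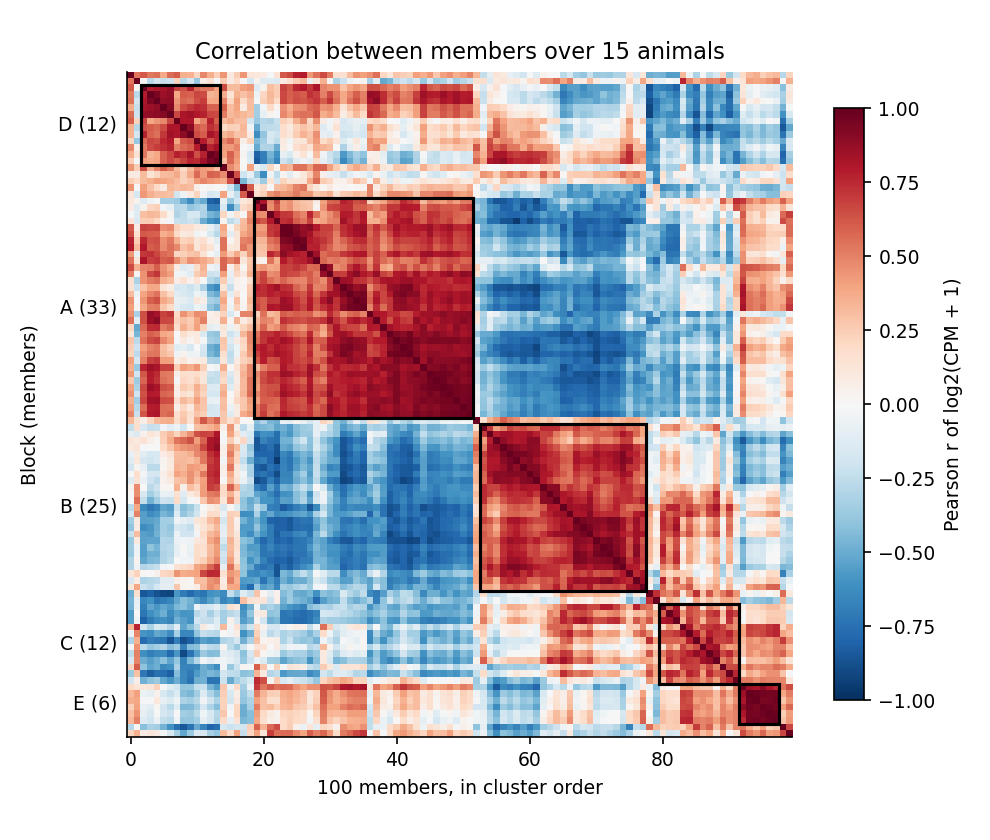
Pearson r of log2(CPM + 1) over 15 animals between all pairs of the 100 members, in the order of average-linkage clustering. Outlined squares are the 5 blocks with their number of members; blocks A and B, of 33 and 25 members, are red within and mostly blue against each other.

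Block A was the largest, with 33 members that took 6.94% of the counts and a median correlation of 0.75 between its members. ENSBTAG00000014534 and ENSBTAG00000009535 were its most abundant members. Its level was highest in high-yield animal 3, at 0.49, where 22 of the 33 members had their highest value, and lowest in high-yield animal 5, at -0.39, where 16 had their lowest. This is a 1.84-fold range. ENSBTAG00000026327, ENSBTAG00000013924 and ENSBTAG00000033080 had the highest mean correlation with the rest of the block, 0.83, 0.82 and 0.82. ENSBTAG00000026327 ran from 1494 to 2820 CPM with a median of 1756 CPM in high-yield animals, and from 1661 to 2627 CPM with a median of 2047 CPM in low-yield animals. Its groups overlapped over most of their range.

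Block B had 25 members with 5.27% of the counts and a median correlation of 0.74. ENSBTAG00000031814 and ENSBTAG00000016315 were its most abundant members, and the block also held ENSBTAG00000002069, the most variable member. Its level ranged from -0.79 in high-yield animal 7 to 0.51 in high-yield animal 8, a 2.46-fold range. ENSBTAG00000031814 ran from 2630 to 12578 CPM with a median of 10333 CPM in high-yield animals, and from 6014 to 13518 CPM with a median of 8373 CPM in low-yield animals. High-yield animals 7 and 3, the latter at 5363 CPM, lay below all low-yield animals in this transcript, and the other 5 lay within the low-yield range. ENSBTAG00000020645, ENSBTAG00000048122 and ENSBTAG00000007622 had the highest mean correlation with the rest of the block, 0.80, 0.79 and 0.79.

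Blocks A and B moved in opposite directions. The median correlation between a member of A and a member of B was -0.64, and the lowest correlation of all pairs, -0.96, was that of ENSBTAG00000007622 of block B with ENSBTAG00000046358 of block A. The levels of both blocks correlated over the 15 animals at a Pearson r of -0.84 and a Spearman rho of -0.88. Pearson r was -0.80 without the 2 animals farthest from the median level of block A, -0.89 to -0.82 with each animal left out in turn, and -0.91 without the 4 animals of the largest no-gene share. With TMM-adjusted library totals it was -0.56. The size of this opposition thus depended on the scaling of the libraries.

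Block C, with 12 members and 2.85% of the counts, and block D, with 12 members and 2.26%, were looser, with median correlations of 0.64 and 0.68. ENSBTAG00000026199 and ENSBTAG00000012330 belonged to block C and ENSBTAG00000047418 to block D. Low-yield animal 7 was the extreme of both: it had the highest level of block C, 0.49, where 9 of the 12 members were highest, and the lowest level of block D, -0.59, where 11 of the 12 members were lowest. Low-yield animal 8 followed in block D, at -0.44, and the other 13 animals lay between -0.08 and 0.31. ENSBTAG00000023343, which had the highest mean correlation with the rest of block D, 0.80, stood at 714 CPM in low-yield animal 7, against a median of 1297 CPM over all animals. The levels of blocks C and D had a Pearson r of -0.75 and a Spearman rho of -0.78, and a Pearson r of -0.33 with TMM-adjusted totals. Without low-yield animals 7 and 8, which were left out after seeing these values, 8 of the members of C joined a block of 34 that also held all of B, and no more than 5 of D lay in 1 block.

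Block E was the smallest and tightest. Its 6 members, ENSBTAG00000043561, ENSBTAG00000043560, ENSBTAG00000043550, ENSBTAG00000043584, ENSBTAG00000043577 and ENSBTAG00000043556, took 1.78% of the counts, and their pairs correlated at 0.76 to 0.98 with a median of 0.95. The highest correlation among all members, 0.98, was that of ENSBTAG00000043561 with ENSBTAG00000043577. The level of the block ran from -1.11 in high-yield animal 7 and -1.01 in low-yield animal 3 to 0.64 and 0.84 in low-yield animals 7 and 8, a 3.88-fold range and the widest of the 5 blocks. ENSBTAG00000043561 ran from 3930 to 12265 CPM with a median of 8791 CPM in high-yield animals, and from 3842 to 15519 CPM with a median of 9160 CPM in low-yield animals. Both groups held an animal near the bottom of the range.

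The members of block E also share a feature that the clustering did not use. Their identifier numbers lie between 43550 and 43584, a run of 35 consecutive numbers, and no other member has a number in that run. The files list 34 identifiers in it, 13 of them with no count in any of the 15 animals. A further 10 had a mean of at least 10 CPM, and 4 of these correlated with the block's level at 0.8 or above, from a lowest value of -0.18 (ENSBTAG00000043581) to 0.98 (ENSBTAG00000043571). All identifiers of the run took 2.07% of the counts on average, from 0.867% to 3.35% of the counts of an animal. This feature was looked at after the block had been seen, and what these genes are is not given by the files.

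**Figure D4:**
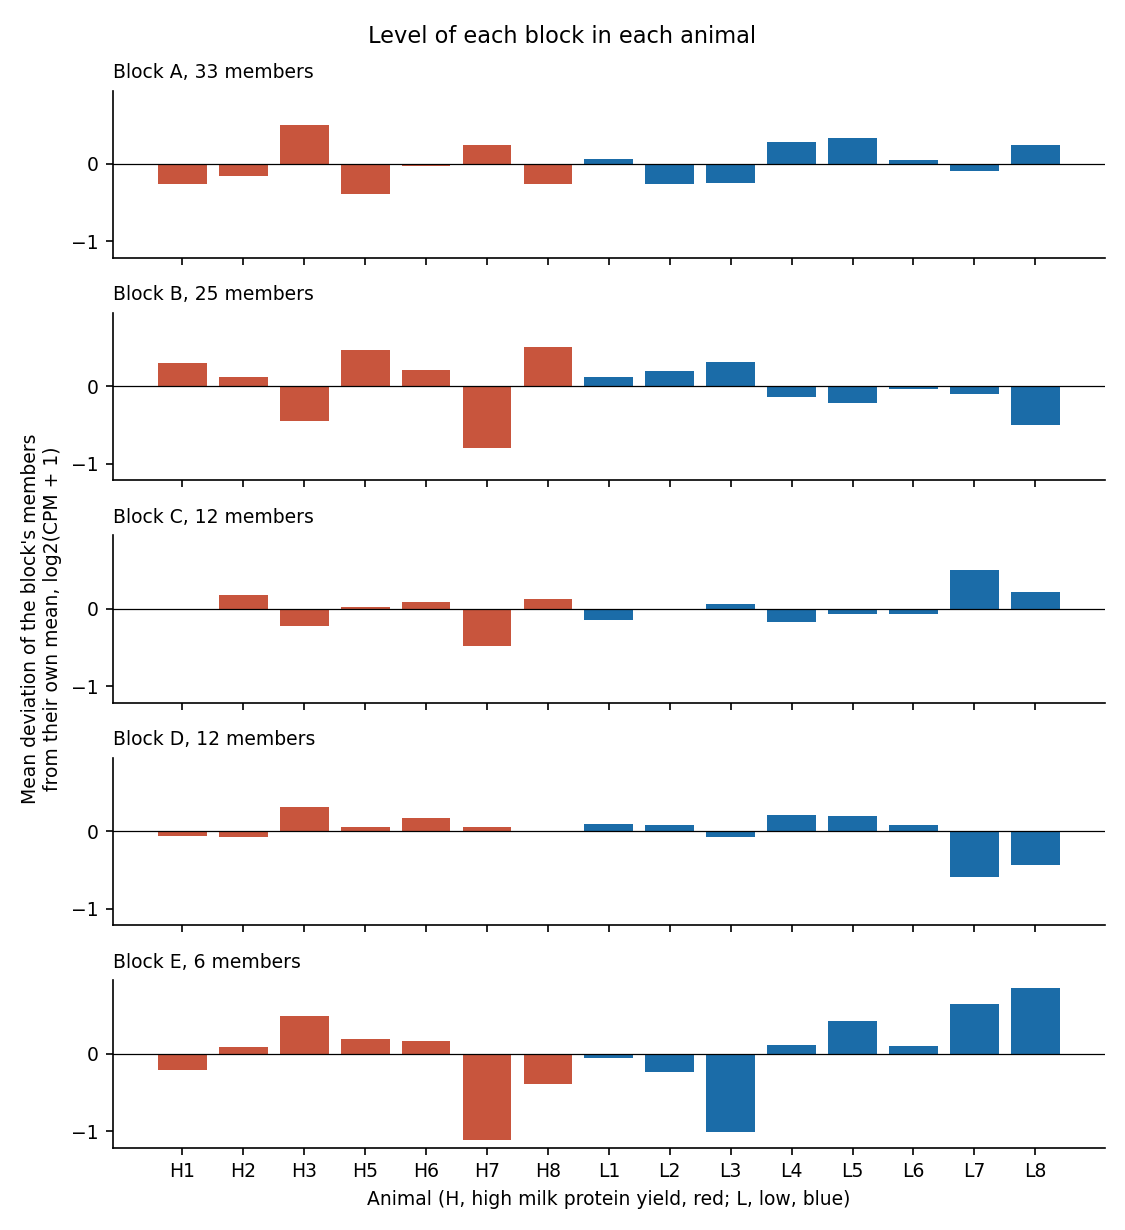
Level of each of the 5 blocks in each of 15 animals, as the mean difference of its members' log2(CPM + 1) from their own means; red bars are high-yield and blue bars low-yield animals. Blocks A and B have opposite signs in most animals, and block E reaches -1.11 in high-yield animal 7 and 0.84 in low-yield animal 8.

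Outside the blocks stood 12 members. They included ENSBTAG00000015228, the most abundant transcript, the 3 steadiest members and ENSBTAG00000031160. The blocks also extended beyond the 100 members: of 11890 tested transcripts with a mean of at least 1 CPM that are no members, 808 (6.80%) correlated with the level of block A at 0.8 or above, 631 (5.31%) with that of B, 156 (1.31%) with C, 424 (3.57%) with D and 13 (0.109%) with E. With opposite sign, at -0.8 or below, there were 596 for A, 1032 for B, 334 for C, 684 for D and 85 for E.

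The blocks were seen with other choices as well, with exceptions. Of the members of A, B, C, D and E, 30, 24, 9, 12 and 6 lay in 1 block with TMM-adjusted totals, and 31, 25, 7, 12 and 6 with values centred within yield group. With Spearman correlations it was 29, 22, 10, 5 and 6, and without the 4 animals of the largest no-gene share 31, 19, 4, 6 and 5. Leaving out each animal in turn kept at least 27 of 33, 23 of 25, 7 of 12, 5 of 12 and 5 of 6 in 1 block. With high-yield animal 4 added, 20, 15, 8, 5 and 5 did so, and the number of blocks rose from 5 to 8. In that animal block C stood at 0.71, above each of the other 15, with 9 of its 12 members above the highest of them.

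Non-unique alignments split the libraries: they made up 7.83% to 8.81% in 8 animals (4 high-yield and 4 low-yield) and at most 4.81% in 7 animals (3 high-yield and 4 low-yield). No label names a batch. Block B averaged 0.21 ± 0.23 in the former and -0.24 ± 0.37 in the latter set (SD), block A -0.12 ± 0.22 and 0.13 ± 0.26, and block E -0.15 ± 0.40 and 0.17 ± 0.66, while C was near 0 in both sets and D stood at 0.03 and -0.03. The 4 animals of the largest no-gene share are all in the latter set, and in these block B stood at -0.79 to -0.10, against -0.21 to 0.51 in the other 11. The part of either measure in the block levels was not tested.

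Milk protein yield was then compared. In edgeR's quasi-likelihood test over all 13264 genes that passed the filter on low counts, which all 100 members did, 0 members passed an adjusted p of 0.05 between the yield groups, and among all genes 0% did. In high-yield animals 50 members stood higher and 50 lower, with a median log2 fold change (high minus low) of -0.00084 against -0.02 over all genes tested. This balance moved with scaling and libraries: 37 stood higher and 63 lower on library totals alone, 75 and 25 with all 16 animals, and 66 and 34 without high-yield animal 7. At an unadjusted p below 0.05 there were 2 members, 1 higher and 1 lower, against 3.82% of all genes, of which 2.15% were higher and 1.67% lower. The members' share was thus no larger than that of all genes.

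The precision was enough to bound the differences of the members. The quasi-likelihood test itself gives no SE. The SE was derived as the size of the log2 fold change over the square root of its F statistic. Intervals were set from this SE with a t quantile. The median SE of a member's log2 fold change was 0.16, against 0.19 over all genes tested. The fold changes ran from -0.35 (ENSBTAG00000043556, 95% confidence interval -0.86 to 0.16) to 0.52 (ENSBTAG00000002069, interval -0.46 to 1.5), and 99 of the 100 intervals lay within -1 and 1. A difference of 2-fold or more between the groups was thus outside the interval of 99 members. ENSBTAG00000043556, at the lower end of the fold changes, owes its rank of 86 to the low-yield group, whose mean was 1298 CPM. The mean of the high-yield group, 988 CPM, was less than the 1094 CPM of rank 100. That end of the range is therefore not independent of the choice of members.

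ENSBTAG00000008154, a member of block D, had the smallest p of the members. It ran from 1450 to 1637 CPM with a median of 1558 CPM in 7 high-yield animals, and from 1053 to 1447 CPM with a median of 1360 CPM in 8 low-yield animals. The groups thus did not overlap in CPM on library totals, although the lowest high-yield animal lay just above the highest low-yield animal. On the same totals 0.0226% of all genes tested (3 genes) showed no overlap. High-yield animal 7, at 1477 CPM, had a TMM factor of 1.12, and low-yield animal 1, at 1444 CPM, one of 0.95. On TMM-scaled totals their order turns, so the groups overlap there. The means were 1537 ± 75 and 1311 ± 140 CPM (SD, n = 7 and 8). On TMM-scaled totals edgeR gave a log2 difference of 0.26, an unadjusted p of 0.0385 and an adjusted p of 0.854. The derived SE was 0.11 (interval 0.02 to 0.50). On library totals alone edgeR gave a log2 difference of 0.23. A two-sided exact permutation test of this transcript alone, on log2 CPM of library totals, gave p = 0.000932. This p is not adjusted for the choice of the transcript among 13264 genes. In high-yield animal 4, which is not among the 7, the transcript stood at 1053 CPM, level with low-yield animal 7, the lowest of the other animals. With that animal the exact permutation p was 0.0912.

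ENSBTAG00000008827 came next among those higher in the high-yield animals, from 1115 to 2090 CPM with a median of 1586 CPM in that group, and from 1252 to 1551 CPM with a median of 1349 CPM in low-yield animals. Of the 7 high-yield animals 4 lay above and 1 below all low-yield animals. The fitted log2 difference was 0.22 with an SE of 0.11 (interval -0.01 to 0.45, adjusted p = 0.854 in edgeR; exact permutation p = 0.0866). It stood at 285 CPM in high-yield animal 4, and with this animal edgeR gave a log2 difference of 0.08, while the difference of mean log2(CPM + 1) turned from 0.19 to -0.12.

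Among members lower in the high-yield animals, ENSBTAG00000013162 had the smallest p. It ran from 847 to 1094 CPM with a median of 1028 CPM in high-yield animals, and from 960 to 1574 CPM with a median of 1140 CPM in low-yield animals, of which 4 lay above all high-yield animals. The fitted log2 difference was -0.24 with an SE of 0.11 (unadjusted p = 0.0475, adjusted p = 0.854 in edgeR). The exact permutation p was 0.0413, and 0.0511 with high-yield animal 4. ENSBTAG00000013162 owes its rank of 97 to the low-yield group, whose mean was 1200.5 CPM. The mean of the high-yield group, 997 CPM, was less than the 1094 CPM of rank 100. Its group difference and these p-values are therefore not independent of the choice of members. ENSBTAG00000003228 of block A followed, with medians of 1181 and 1615 CPM in high- and low-yield animals and ranges of 988 to 2015 and 1075 to 2094 CPM that overlapped over most of their length. The fitted log2 difference was -0.31 with an SE of 0.16 (interval -0.66 to 0.04, adjusted p = 0.854 in edgeR; exact permutation p = 0.0827).

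**Figure D5:**
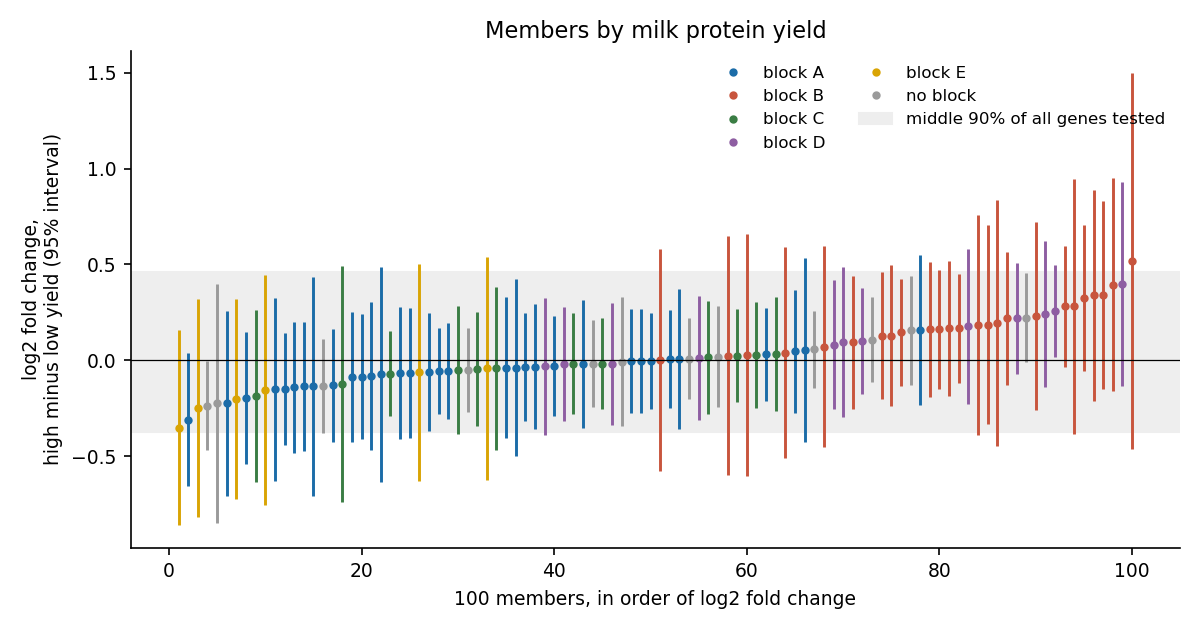
Log2 fold change (high minus low yield, edgeR, 15 animals) of each member in ascending order, with its 95% confidence interval, coloured by block. The grey band holds the middle 90% of all genes tested, -0.37 to 0.46; points of block B lie to the right and those of block A mostly to the left of the middle, and nearly all intervals cross 0.

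By block, the fold changes were small, and their direction depended in part on the animals and the method used. In block B the log2 fold change was above 0 in 25 of 25 members, with a median of 0.17, and in block A below 0 in 27 of 33, with a median of -0.06. It was below 0 in 6 of 6 members of block E (median -0.18) and 8 of 12 of block C (median -0.03), and above 0 in 9 of 12 of block D (median 0.10). With all 16 animals 24 of 33 members of A and 11 of 12 of C were above 0, and without the 4 animals of the largest no-gene share 0 of 33 and 12 of 12. Without these 4, 5 of 12 members of D and 4 of 6 of E were above 0. On library totals alone it was 4 of 33 in A, 21 of 25 in B and 0 of 12 in C. Limma voom with quality weights, on the same 15 animals, put 0 of 33 in A and 25 of 25 in B above 0. In C it was 11 of 12, in D 5 of 12 and in E 1 of 6. Members of a block vary together and are not independent, so such a count supports nothing by itself. The level of block B was 0.05 ± 0.49 at high and -0.05 ± 0.26 at low yield, and that of block A -0.05 ± 0.31 and 0.05 ± 0.23 (SD, n = 7 and 8). Block E averaged -0.11 ± 0.52 and 0.10 ± 0.57, block C -0.04 ± 0.23 and 0.04 ± 0.22, and block D 0.06 ± 0.14 and -0.06 ± 0.30. In each block the difference between the groups was smaller than the SD of either group.

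The 4 animals of the largest no-gene share, 2 from each yield group, moved this count. Without them 24 members were at an unadjusted p below 0.05, against 13.4% of all genes tested, and 0 members at an adjusted p below 0.05 (lowest 0.298 in edgeR). Of these 24, 11 belonged to block A and were lower in the high-yield animals, and 11 belonged to block B and 2 to block C and were higher, with log2 fold changes of 0.21 to 0.52 in size. These animals were left out after their values had been seen, and 5 high-yield and 6 low-yield animals remained.

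The share of counts held by the members did not differ between the groups beyond their spread. It was 22.0% ± 1.63 at high and 22.2% ± 0.908 at low yield (SD, n = 7 and 8), a difference of -0.256 percentage points (two-sided exact permutation p = 0.721, adjusted p = 0.721 over 2 shares tested). The 10 most abundant members held 6.57% ± 0.781 and 6.76% ± 0.682, a difference of -0.188 percentage points (two-sided exact permutation p = 0.626, adjusted p = 0.721). The sign of both differences turned without high-yield animal 7, to 0.247 and 0.0840 percentage points. Within the set of animals with more non-unique alignments the difference for the 10 most abundant members was 0.235 percentage points.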

How the data were processed

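Whole blood RNA of 16 cattle was sequenced, with 1 library per animal. The deposited values are raw read counts per Ensembl gene identifier, whole numbers that the authors left unscaled. The submitters' processing notes name assembly UMD3.1, HTSeq, SAMtools 1.4 and TopHat2 2.1.1, with no role for each. No source used here gives the strand setting or annotation. Reads of overlapping genes and near-identical copies are therefore uncertain. The 5 closing entries of each file were kept out of totals.

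Members and the choices below were made with earlier results of these data known. Genes were tested with edgeR 4.0.16 in R 4.3.3 (quasi-likelihood F-test, TMM, filterByExpr with minimum count 10 and total 15, yield group as the factor, Benjamini-Hochberg over all genes tested), without high-yield animal 4. Shares and the 4 members named for smallest p were tested by exact permutation, the members on log2 CPM of library totals. The script was tested on simulated data. Alternatives were other scalings and filters, DESeq2 1.42.0, limma 3.58.1, all 16 libraries, a replicate block, the non-unique set and leaving out each library. Named were the 10 highest members, the 5 highest and lowest in coefficient of variation, the 2 of smallest p each way, 3 per block by mean correlation (not all printed), and those next to rank 100. That animals are separate rests on the labels. Chi-square per degree of freedom over the members was at least 345 between any 2 libraries, far beyond sampling noise. Marker lists of blood cell types, set by symbol, could not be scored. No label pairs same-numbered animals of the groups. Their deviations correlated at -0.62 to 0.14, above 0.1 in 1 of 7 pairs. Animals paired by design need not correlate in these transcripts, so the values cannot decide whether they were paired.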

Additional observations from a re-analysis of the deposited data

Results flagged for a closer look

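Of 86 groups examined (43 measures in the high- and the low-yield animals), 6 held an animal far from the others of its group. The measures included members named for their coefficient of variation or their p. ENSBTAG00000002069, ENSBTAG00000031160 and ENSBTAG00000048122 were named for a high coefficient of variation. Chance flags about 5% of groups that were not chosen by their values, so that rate is no yardstick here. ENSBTAG00000002069 stood at 5144 CPM in high-yield animal 8, against 485 to 2021 CPM in the other high-yield animals. ENSBTAG00000031160 stood at 5049 CPM in low-yield animal 2, against 1239 to 2744 CPM in the others of that group. ENSBTAG00000048122 stood at 3400 CPM in low-yield animal 3, against 997 to 2134 CPM. ENSBTAG00000003228 stood at 2015 CPM in high-yield animal 7, against 988 to 1392 CPM. ENSBTAG00000003039, one of the steadiest members, stood at 1292 CPM in high-yield animal 6, against 986 to 1117 CPM. The share of counts of the 10 most abundant members was 4.94% in high-yield animal 7, against 6.40% to 7.33% in the other high-yield animals.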

How the results depend on the processing

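The count of members at an adjusted p below 0.05 was 0 under edgeR and under all 26 alternatives tried, DESeq2 and limma included. The 2 members at an unadjusted p below 0.05 became 0 with all 16 libraries and with the replicate block. They became 1, higher in high-yield animals, with RLE factors, no filter, a filter of 1 CPM or the non-unique set as a term. Upper-quartile factors gave 2 higher and 0 lower. In none of these settings did ENSBTAG00000013162, lower in the high-yield animals, have an unadjusted p below 0.05 in edgeR. The count was 25 with limma voom and quality weights (against 3645 of all 13264 genes). Without the 4 libraries of highest no-gene share it was 24 (against 1781 of 13298), and with DESeq2 it was 3 (against 615 of 13264). With each library left out it was 0 to 6. It was 6 without low-yield animal 2 (against 1009 of 13154 genes) and 5 without high-yield animal 7 (against 1189 of 13339). No label pairs same-numbered animals, so the replicate block is a comparison of fits only. Among all genes 2 were called by DESeq2 and 0 to 1 with each library left out. The share difference of the members ran from -0.613 to 0.247 percentage points with each library left out, and was 0.415 with all 16 libraries and 0.0772 without the 4 libraries. That of the 10 most abundant ran from -0.375 to 0.0840, and was 0.235 within the set of more non-unique alignments and 0.248 without the 4 libraries. The median coefficient of variation was 27.5% with all 16 libraries, and 18.1% to 20.3% with each library left out. The number of blocks was 8 with all 16 libraries and 4 to 6 with each library left out. Membership kept 96 members with all 16 libraries, 97 by median CPM, and 97 to 100 with each library left out. The cause was not tested. The settings with the 4 libraries, or low-yield animals 7 and 8, left out were added after seeing the data.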
